A study of Homo sapiens with 6 samples.

Results

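The regions described here are the deposited YAP and TAZ peaks on human chromosome 6 outside the interval that holds the main histone gene cluster and the major histocompatibility complex. A peak was a member if its midpoint lay on chromosome 6 of build hg19 and outside 25900000 to 33500000. Members with a midpoint below 58.8 Mb were assigned to the short arm, and those above 61.8 Mb to the long arm. The 4 lists held 90062 member peaks among 1390121 peaks in all, of which 31866 lay on the short arm and 58196 on the long arm. No peak had its midpoint between the arms, and 5249 peaks of chromosome 6 fell inside the excluded interval. Chromosome 6 was chosen by the density of its strong peaks, defined below, in these same lists, so that density and the count of YAP-selective regions are given as descriptions, without a test.

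The peaks came from chromatin immunoprecipitation followed by sequencing (ChIP-seq) in H1299, an established human cell line of non-small cell lung cancer. All cells had been starved of serum for 18 hours, and chromatin was precipitated with an antibody against YAP (2 libraries) or against TAZ (2 libraries), beside 2 input libraries. The study asked how the functions of YAP and TAZ are divided in this cancer. H1299 is 1 cell line, nothing in the labels ties a replicate to a separate culture, and p-values then measure only the spread between these libraries, which may be technical.

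YAP and TAZ are related coactivators held in check by the Hippo kinases. When these kinases are inactive, YAP and TAZ enter the nucleus and bind DNA through partner proteins, mainly the TEAD factors, often at enhancers far from the genes they act on. CCN2, a classical target gene of YAP and TAZ, lies on the long arm of chromosome 6. No gene annotation of build hg19 was used here, so peaks are given by position and not by gene.

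Each library's list was called separately by the authors, and values are given throughout in the order YAP replicate 1, YAP replicate 2, TAZ replicate 1 and TAZ replicate 2. On chromosomes 1 to 22 and X the lists held 392120, 353336, 333505 and 310657 peaks. Peak lists carry no read totals, so the depth of each library is unknown, and a list may be longer because its library is deeper. Members numbered 24957, 23692, 21377 and 20036, in the same order as the lengths of the whole lists. All 4 lists name the same input inside their peak names while the names of the lists point to different inputs, so the input behind each list is unsettled.

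By fold, the bounds of the excluded interval cut through ordinary peaks, but peak density differed across the lower bound. Just below 25.9 Mb the nearest members had folds of 2.56, 2.60, 2.71 and 2.84, and the nearest peaks inside the interval had folds of 3.62, 2.85, 3.38 and 3.32. At 33.5 Mb the last peaks inside had folds of 4.24, 3.66, 3.63 and 3.35, and the first members beyond it 3.32, 3.07, 3.14 and 2.74. Here fold is the authors' ratio of ChIP to input signal over a peak. In the 0.1 Mb just inside 25.9 Mb there were 290, 250, 260 and 210 peaks per Mb. The 0.9 Mb below it held 157.8, 150, 132.2 and 122.2 per Mb. Within the interval, the last 0.5 Mb before 33.5 Mb held 158, 176, 176 and 182 per Mb. The 0.5 Mb beyond held 146, 172, 172 and 164.

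The short arm carried more and wider peaks per length than the long arm. The short arm held 167.0, 162.2, 149.8 and 143.4 peaks per Mb, and the long arm 150.2, 140.9, 125.5 and 116.2. The short arm was the denser in all 4 libraries, by a mean of 22.4 peaks per Mb (16.8, 21.4, 24.3 and 27.1). An exact two-sided sign-flip test over the 4 libraries gave p = 0.125, the smallest that 4 libraries allow.

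Width separated the arms further than number did. The median peak spanned 660.5, 623, 685 and 759.5 bp on the short arm against 497, 474, 468 and 486 bp on the long arm, so every short arm value lay above every long arm value. Peaks covered 21.8, 19.9, 17.8 and 18.5% of the short arm and 16.1, 14.3, 11.9 and 11.6% of the long arm. The mean differences between arms, over n = 4 libraries, were 200.75 bp in median width and 6.02 percentage points in covered length (exact sign-flip p = 0.125 for each).

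Wide peaks accounted for part of this coverage. Peaks of at least 5 kb numbered 285, 229, 168 and 226 on the short arm and 288, 244, 178 and 201 on the long arm. Per 10 Mb these were 55.7, 44.7, 32.8 and 44.1 on the short arm and 26.4, 22.3, 16.3 and 18.4 on the long arm. They made up 21.0, 18.0, 14.6 and 19.1% of the peak-covered length of the short arm and 13.2, 12.4, 10.5 and 12.0% of that of the long arm. All 4 libraries thus had the higher density of wide peaks on the short arm. The median distance from one peak to the next was 3007.5, 3015, 3225 and 3246.5 bp on the short arm and 3601, 3798, 4166 and 4366 bp on the long arm.

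**Figure D1:**
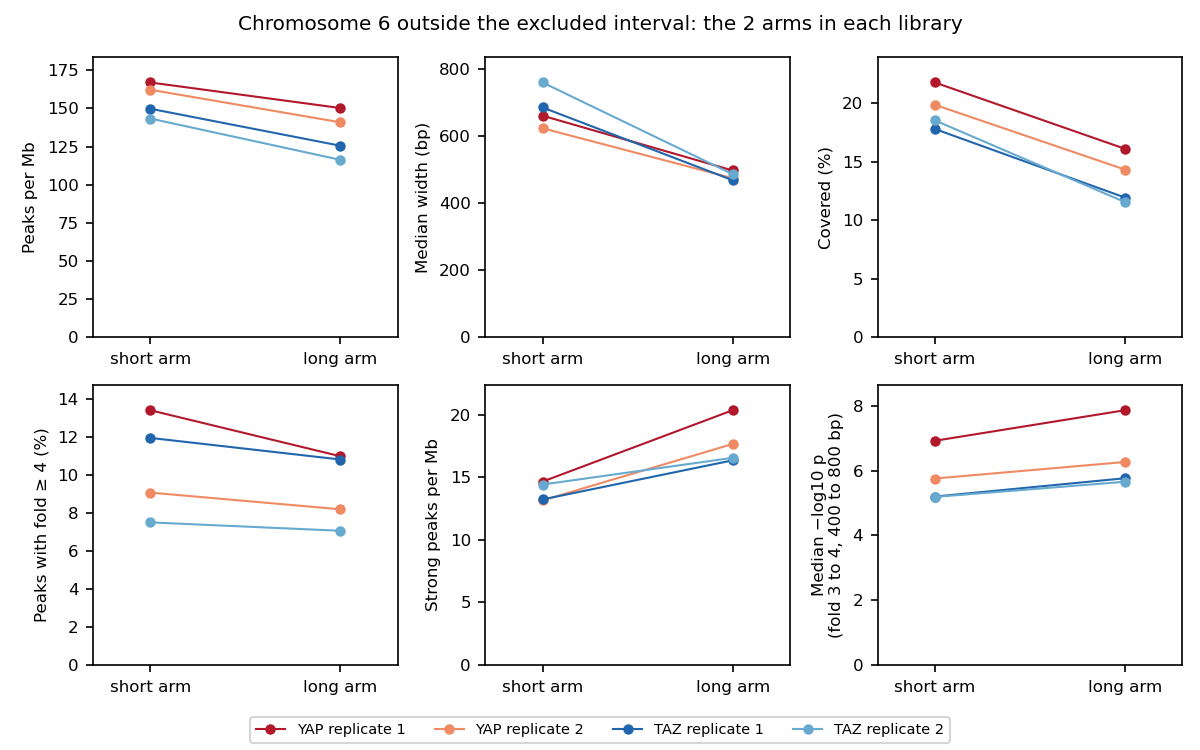
Each of the 6 panels shows 1 quantity on the short and the long arm of chromosome 6 outside the excluded interval; each line joins the 2 arms of 1 library, and every vertical axis starts at 0. Peak density, width, coverage and the percentage of peaks with a fold of at least 4 are higher on the short arm in all 4 libraries, and strong peaks per Mb and the median −log10 p at matched fold and width are higher on the long arm in all 4.

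The order of the arms turned around for strong peaks. Strong peaks were the 20000 peaks of each library, over chromosomes 1 to 22 and X, that had the highest deposited −log10 q, where q is the peak caller's p-value adjusted for multiple tests. The members held 2977, 2605, 2466 and 2549 of them. On the short arm there were 14.7, 13.2, 13.2 and 14.4 strong peaks per Mb, and on the long arm 20.4, 17.7, 16.4 and 16.6. Strong peaks made up 8.78, 8.11, 8.84 and 10.1% of the peaks on the short arm and 13.6, 12.6, 13.0 and 14.3% on the long arm. The long arm was thus the richer in strong peaks in every library, by 1.39, 1.34, 1.24 and 1.15 times per Mb.

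Enrichment over input did not follow that order. The median fold was 3.29, 3.20, 3.22 and 3.10 on the short arm and 3.18, 3.11, 3.16 and 3.07 on the long arm, and peaks with a fold of at least 4 were 1.22 percentage points more frequent on the short arm (mean over 4 libraries, exact sign-flip p = 0.125). Significance was then compared among peaks of like fold (3 to 4) and like width (400 to 800 bp). Their median −log10 p was 6.92, 5.76, 5.20 and 5.19 on the short arm and 7.87, 6.27, 5.77 and 5.66 on the long arm. At matched fold and width the long arm was higher in all 4 libraries, by 0.94, 0.51, 0.57 and 0.47 (exact sign-flip p = 0.125). At a given fold −log10 p depends on the reads under a peak, which the lists do not hold, so strong peaks are ranked by significance and not by enrichment.

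Against the other 22 chromosomes (1 to 22 and X without 6), the same pair of measures was highest on chromosome 6. The choice of the chromosome fixed this for the strong peaks. The matched −log10 p belongs to the same significance, from which the q that ranks strong peaks is adjusted. Its rank is therefore not a separate result. The members had 18.6, 16.2, 15.4 and 15.9 strong peaks per Mb, above every other chromosome in all 4 libraries; chromosome 19 came next with 17.9, 15.6, 13.7 and 12.5. Their median −log10 p at matched fold and width was 7.56, 6.09, 5.54 and 5.48, and the highest other chromosome, 8, reached 7.38, 5.96, 5.44 and 5.40. By coverage chromosome 6 was unremarkable: 7, 8, 9 and 9 other chromosomes had a larger covered share, and 14, 16, 16 and 16 had a larger median width. By number of peaks per Mb it was passed by 1, 2, 2 and 2 chromosomes, chromosome 17 being the densest in each library. The length of the members leaves out the peak-free gap between the arms, while each other chromosome was taken whole, with any such gap. Ranks per Mb and by covered share thus compare unlike lengths, for strong peaks as well as for all peaks. With its gap and the excluded interval counted, chromosome 6 had 18.11, 15.86, 14.96 and 15.65 strong peaks per Mb, still above chromosome 19. Ranks with gaps left out of every chromosome were not tested.

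**Figure D2:**
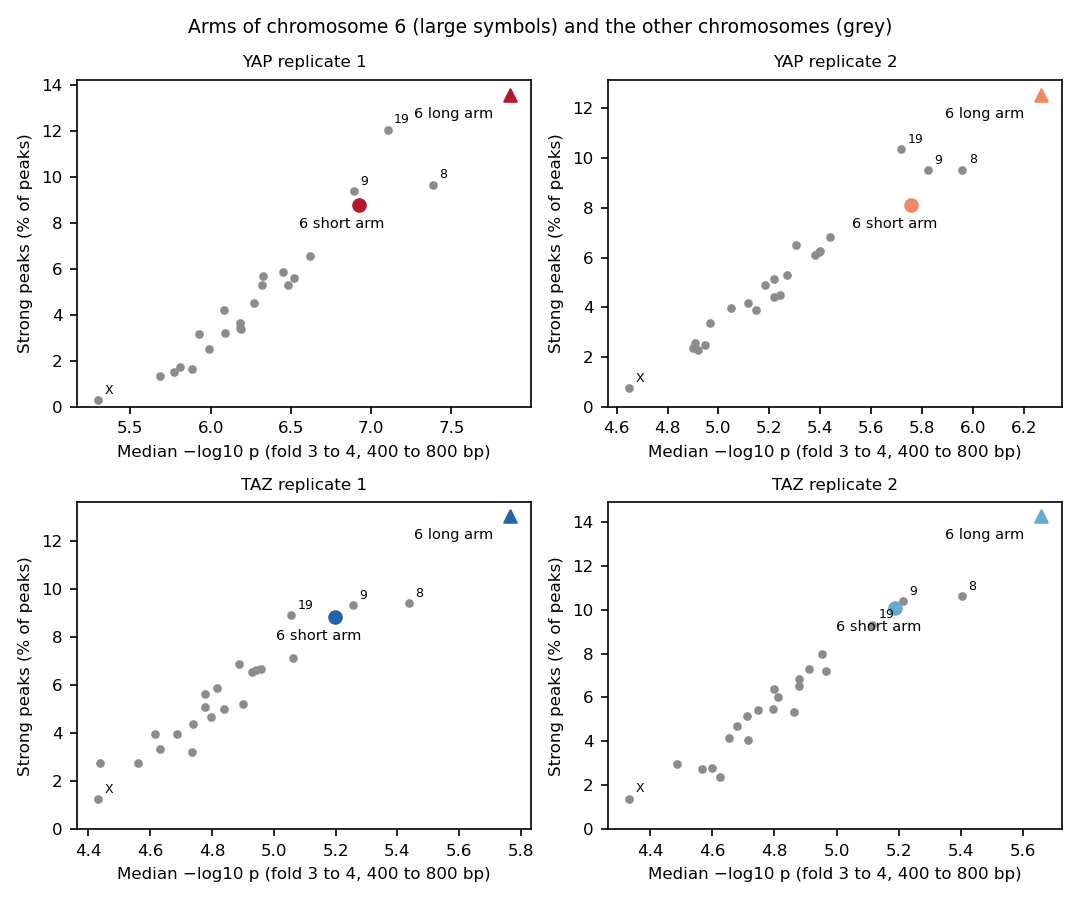
One panel per library plots strong peaks as a percentage of all peaks (vertical) against the median −log10 p of peaks of fold 3 to 4 and width 400 to 800 bp (horizontal); grey points are the other 22 chromosomes, of which 8, 9, 19 and X are labelled, and the large symbols are the 2 arms of chromosome 6. The long arm lies at the upper right end in all 4 libraries, and the short arm beside chromosomes 9 and 19.

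Along the arms, windows of 1 Mb differed more in coverage than in number of peaks. Windows under 0.5 Mb at the ends were left out, which left 52 windows on the short arm and 109 on the long arm. Peaks per Mb ran from 74 to 236 in YAP replicate 1 (median 155), from 66 to 236 in YAP replicate 2 (148), from 61 to 235 in TAZ replicate 1 (132) and from 45 to 230 in TAZ replicate 2 (122). The coefficient of variation over windows (SD divided by the mean) was 22.1, 26.2, 32.1 and 36.1% for peak number and 57.2, 61.8, 70.0 and 78.2% for covered share. The TAZ lists were thus the more uneven along the chromosome on both measures. Both coefficients also rose from each list to the next shorter one, within as well as between antibodies. The part of list length in this was not tested. All 4 lists ranked the windows alike, with Spearman's rho between 0.94 and 0.98 for peaks per Mb and between 0.66 and 0.76 for strong peaks per Mb; these points are 161 neighbouring windows of 1 genome, and no p is given.

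**Figure D3:**
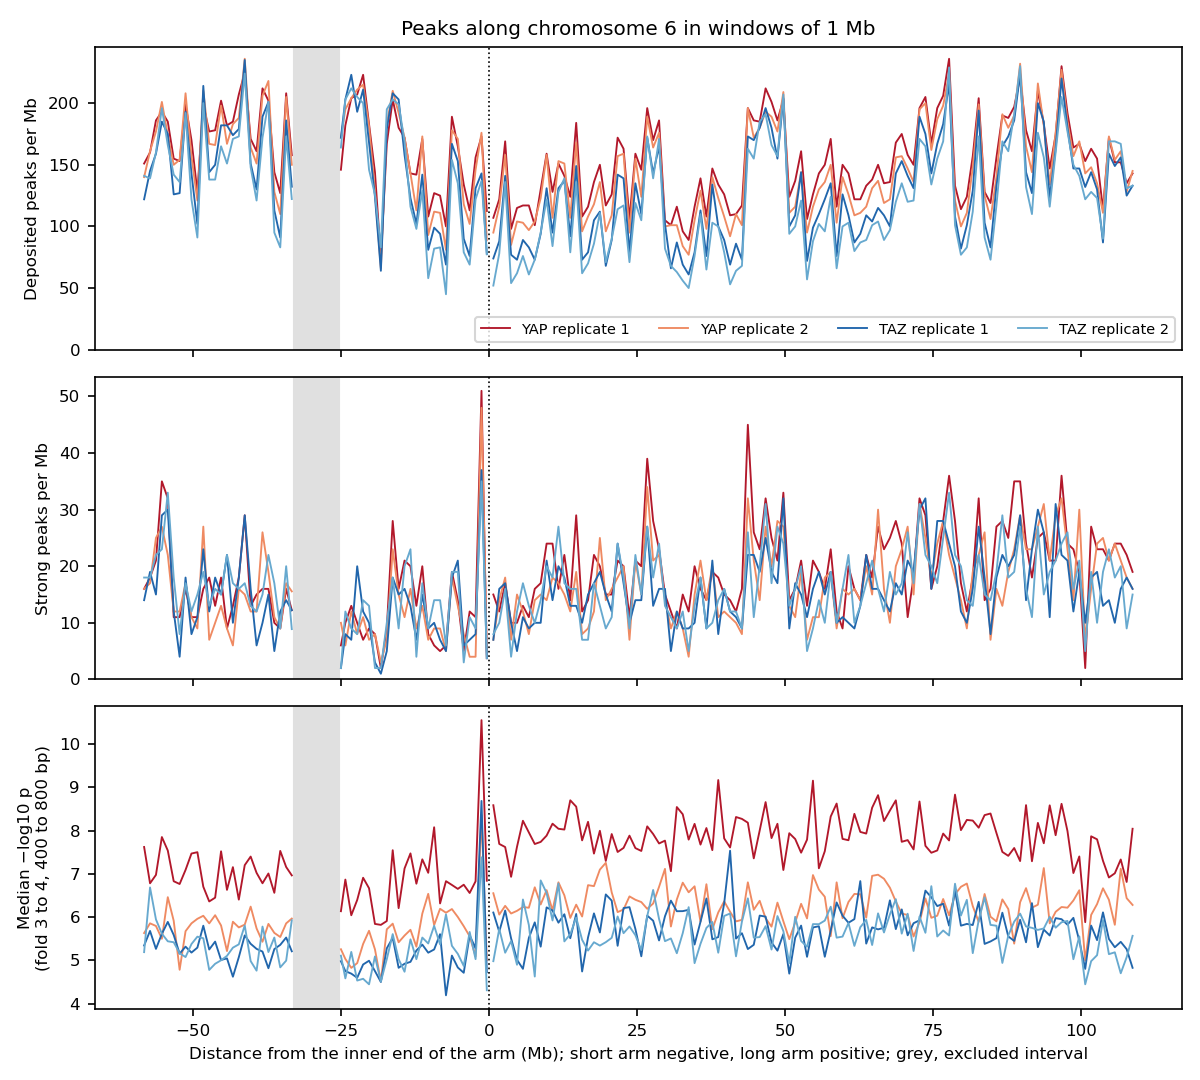
The 3 panels show deposited peaks per Mb, strong peaks per Mb and the median −log10 p at matched fold and width in windows of 1 Mb, against the distance in Mb from the inner end of each arm (short arm negative, long arm positive; grey band, excluded interval); lines are the 4 libraries. The lines rise and fall together, a single short arm window close to the dotted line has the most strong peaks in each library (51, 48, 37 and 35), and most of the long arm lies above most of the short arm in the lowest panel.

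The windows with most peaks were broadly covered in all 4 lists. On the short arm these were 17 to 18 Mb (225, 236, 235 and 224 peaks, covering 44.8, 39.6, 36.9 and 34.3%), 37 to 38 Mb (223, 215, 211 and 200 peaks) and 35 to 36 Mb (204, 204, 223 and 212 peaks). On the long arm they were 151 to 152 Mb (221, 232, 224 and 230 peaks, covering 47.0, 43.9, 40.4 and 38.1%), 139 to 140 Mb (236, 224, 216 and 229) and 158 to 159 Mb (230, 227, 220 and 205). In number, the antibodies overlapped at 17 to 18, 139 to 140 and 151 to 152 Mb. Both YAP lists held more at 37 to 38 and 158 to 159 Mb, and both TAZ lists held more at 35 to 36 Mb. As a share of the list, both TAZ lists lay above both YAP lists in every one of these windows, an order found in 23.8% of all windows of the genome.

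In the windows with fewest peaks the YAP lists, which are longer as a whole, held more peaks than the TAZ lists, with 1 exception. On the long arm 95 to 96 Mb held 89, 77, 61 and 50 peaks, 94 to 95 Mb 96, 84, 69 and 56, and 65 to 66 Mb 98, 85, 77 and 54. On the short arm 51 to 52 Mb held 100, 81, 69 and 45, and 48 to 49 Mb 108, 93, 81 and 58. In each of these 5 windows both YAP lists exceeded both TAZ lists, in number and as a share of the list. That order of shares was found in 36.9% of all windows of the genome. The exception was 40 to 41 Mb on the short arm, where the counts were 74, 66, 64 and 83 and TAZ replicate 2 was the highest. As a share of the list, both TAZ lists lay above both YAP lists there, an order found in 23.8% of all windows.

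Stretches without a peak in any list were short. The longest on the long arm ran from 95679333 to 95832929 (153597 bp), inside the sparsest window of that arm, and from 167939256 to 168042084 (102829 bp). The longest on the short arm ran from 58071231 to 58140800 (69570 bp). Between the arms 3100690 bp held no peak, from 58779456 to 61880145. Where the 4 lists were joined, peaks of at least 1 library covered 29.9% of the short arm and 21.1% of the long arm.

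Density and strength went together on the long arm more than on the short arm. Across windows the Spearman correlation of strong peaks per Mb with all peaks per Mb was 0.88 on the long arm (109 windows) and 0.58 on the short arm (52 windows). Strong peaks per Mb followed the median −log10 p at matched fold and width with a rho of 0.59 on the short arm and 0.05 on the long arm. Both measures come from the same libraries and the same q-values, so these are descriptions.

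Larger blocks were compared next; their bounds were set after the windows had been seen. From 33.5 to 42 Mb on the short arm peaks covered 29.9, 27.9, 26.8 and 30.5% of the sequence, with 8.35, 7.88, 7.88 and 8.35 strong peaks per Mb and a matched median −log10 p of 6.25, 5.19, 4.77 and 4.72. From 62 to 105 Mb on the long arm peaks covered only 12.9, 11.2, 8.69 and 7.65%, with 17.2, 14.3, 13.5 and 14.0 strong peaks per Mb and a matched median of 7.88, 6.31, 5.88 and 5.57. Of these 2 blocks the less covered one had more strong peaks in every library. That order does not extend to the whole short arm: before 25.9 Mb peaks covered 22.2, 20.3, 17.8 and 17.8%, with 16.3, 15.1, 15.3 and 16.8 strong peaks per Mb, above the 62 to 105 Mb block in 3 of 4 libraries. From 105 to 162 Mb strong peaks reached 18.8 to 22.8 per Mb in the 4 libraries, at a matched median of 7.95, 6.25, 5.79 and 5.74.

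A narrow stretch near the inner end of the short arm held the most strong peaks of any window outside the excluded interval. The window 57 to 58 Mb had 51, 48, 37 and 35 strong peaks among 173, 176, 143 and 137 peaks. The excess lay between 57.2 and 57.6 Mb, with 36, 34, 24 and 25 strong peaks, against 14, 10, 10 and 10 in the 1 Mb before it and 11, 10, 9 and 10 in the 1 Mb after it. Fold was not raised there: the median over all peaks of the stretch was 2.96, 2.81, 2.86 and 2.79, against 3.30, 3.08, 3.17 and 3.16 in the 1 Mb before. Peaks of fold 3 to 4 had a median −log10 p of 12.0, 8.93, 8.67 and 8.09 in the stretch and 6.52, 5.28, 5.07 and 4.94 before it. In all 4 libraries, significance at like fold was thus higher inside the stretch while the folds themselves were lower. The stretch was picked for its strong peaks, which are ranked by q, so its higher significance is not a separate result. Its bounds were read off the values in steps of 100 kb.

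The opposite was seen in 1 window of the long arm. At 162 to 163 Mb there were 2, 7, 10 and 5 strong peaks, against 19, 30, 19 and 21 in the window before and 27, 16, 18 and 19 in the window after. The number of peaks was little lower, at 153, 143, 132 and 122 against 167, 169, 147 and 141 before. The median fold was 3.19, 3.21, 3.25 and 3.06, and the median −log10 p of peaks of fold 3 to 4 was 5.97, 4.99, 4.80 and 4.49, against 7.17, 5.77, 5.32 and 5.25 before. Strong peaks and significance at like fold were low together here in all 4 libraries. This window had the fewest strong peaks of the long arm, by the mean of the 4 libraries. It was picked for that, so its low significance at like fold is not a separate result.

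**Figure D4:**
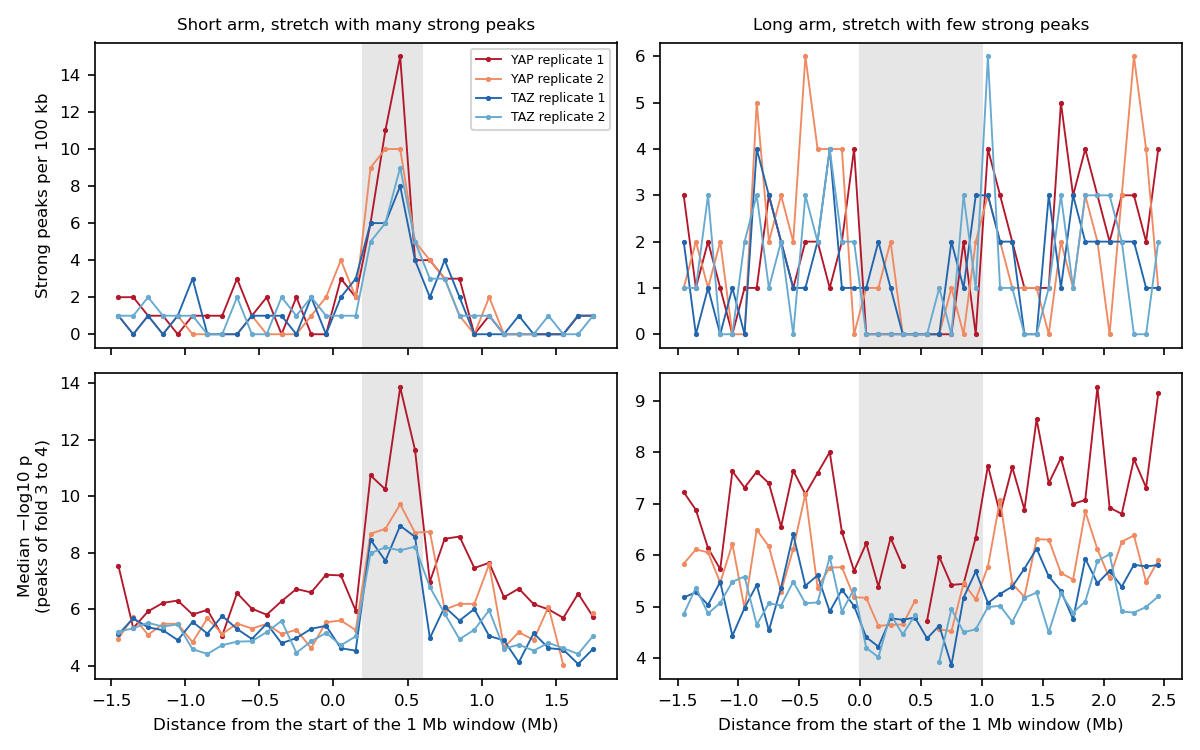
Strong peaks per step of 100 kb (upper panels) and the median −log10 p of peaks of fold 3 to 4 (lower panels) are shown against the distance in Mb from the start of the 1 Mb window described in the text; lines are the 4 libraries, and grey marks the stretch. On the short arm (left) both measures rise inside the grey stretch in every library, and on the long arm (right) both are low inside it.

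Between the antibodies, both YAP lists held more members than both TAZ lists. Members numbered 24324.5 ± 894 (SD, n = 2) for YAP and 20706.5 ± 948 (n = 2) for TAZ, and the exact two-sided permutation test of 2 against 2 libraries gave p = 0.333, the smallest it can give. The YAP lists were longer as a whole, and as a share of each list members made up 6.53 ± 0.241% for YAP and 6.43 ± 0.0281% for TAZ, with overlapping libraries (exact permutation p = 1). Members covered 17.0 ± 1.29% of the sequence in YAP and 13.8 ± 0.0194% in TAZ (exact permutation p = 0.333). Their median width was 519 ± 12.7 bp in YAP and 548.25 ± 37.1 bp in TAZ (exact permutation p = 0.667). Number and coverage thus separated the antibodies, while share and width overlapped.

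The tilt towards the short arm was steeper in the TAZ lists. The short arm had 1.11 and 1.15 times as many peaks per Mb as the long arm in the YAP libraries, and 1.19 and 1.23 times in the TAZ libraries. The means were 1.13 ± 0.0284 and 1.21 ± 0.0282 (SD, n = 2 each), without overlap (exact permutation p = 0.333). The ratios rose in the order in which the lists grew shorter, within each antibody as well as between them. With lists of equal length they were 1.11, 1.15, 1.19 and 1.23. The part of the antibody and that of list order in this tilt were not tested. Restricted to peaks of fold 4 or more, the ratios were 1.36, 1.28, 1.32 and 1.31, and there the antibodies overlapped.

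Window by window, the share of each list was compared between YAP and TAZ with limma on log2 values, over 2883 windows of 1 Mb across the genome. At an adjusted p (Benjamini-Hochberg) under 0.05, 1.21% of all windows had a higher share in YAP and 3.57% a higher share in TAZ. Among the 162 windows of chromosome 6 that passed the filter (the windows above and one of 0.2 Mb at the inner end of the long arm), 3 had a higher share in YAP and 0 a higher share in TAZ by limma; at an unadjusted p under 0.05 these were 28 and 8 (17.3% and 4.94%, against 12.7% and 11.2% of all windows). With the windows centred on their median instead, limma called 1 window for YAP and 3 for TAZ, so the direction of the calls rests on the scaling. Over all windows it called 204 of 2883 with that centring and 131 of 2882 with q up to 0.01. Counting only peaks with q up to 0.01 it called 0 for YAP and 3 for TAZ, and without YAP replicate 1 or without TAZ replicate 2 it called 0 windows of chromosome 6.

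All 3 called windows were sparse. At 66 to 67 Mb the lists held 115, 104, 73 and 62 peaks, a log2 difference in share of 0.49 (SE 0.148, limma adjusted p = 0.0329). At 54 to 55 Mb they held 134, 118, 90 and 79 peaks, a difference of 0.36 (SE 0.112, limma adjusted p = 0.0364). At 102 to 103 Mb they held 109, 92, 69 and 53 peaks, a difference of 0.51 (SE 0.169, limma adjusted p = 0.0499). Both YAP lists lay above both TAZ lists in each of them.

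Counted by order alone, both YAP shares exceeded both TAZ shares in 79 of the 162 windows (48.8%), against 36.9% of all windows of the genome. The reverse order held in 29 (17.9%), against 23.8% of all windows. On the long arm the counts were 61 and 14 of 110 windows, and on the short arm 18 and 15 of 52. The median log2 difference, YAP minus TAZ, was 0.10 on the long arm and −0.01 on the short arm, beside 0.07 over all windows. The long arm median thus lay slightly above that of all windows, and the short arm median below it. The ratios of the arms come from the same counts. Over the 162 windows the median was 0.05. It turned to −0.03 with the windows centred on their median and to −0.07 with q up to 0.01. By covered share, with no scaling to the list, both YAP lists exceeded both TAZ lists in 137 of the 162 windows (84.6%; all windows, 72.1%) and both TAZ lists exceeded both YAP lists in 3 (1.85%; all windows, 1.87%).

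The difference between antibodies followed how dense a window was. The 54 sparsest windows had 69.25 to 115.5 peaks per Mb on the mean of the 4 lists, and there YAP replicate 1 held 1.37 times the peaks of TAZ replicate 1 (6319 against 4629), and YAP replicate 2 held 1.38 times those of TAZ replicate 2 (5632 against 4082). In the 53 middle windows the ratios were 1.19 and 1.20, and in the 54 densest (157.25 to 230 peaks per Mb) 1.06 and 1.09. With every list cut by rank of −log10 q to as many peaks as the shortest one, the ratios of the replicate 1 lists were 1.19, 1.09 and 1.01 from the sparsest to the densest set, and those of the replicate 2 lists 1.21, 1.09 and 1.01. The YAP excess was largest in the sparse windows at either list length.

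The same slope appeared between libraries of 1 antibody. YAP replicate 1 held 1.12, 1.06 and 1.01 times the peaks of YAP replicate 2 from the sparsest to the densest set, and TAZ replicate 1 held 1.13, 1.07 and 1.03 times those of TAZ replicate 2. In each of these pairs the longer list had its excess in the sparse windows. With lists of equal length these ratios were 1.06, 1.02 and 0.989 for YAP and 1.08, 1.03 and 0.996 for TAZ. At equal length YAP replicate 2 held 1.13, 1.07 and 1.02 times the peaks of TAZ replicate 1. For YAP replicate 1 over TAZ replicate 2 the ratios were 1.28, 1.12 and 1.00. The slope thus remained at equal length within as well as between antibodies. Across windows the log2 difference in share had a Spearman rho with density of −0.84 for YAP minus TAZ, −0.70 for YAP replicate 1 minus replicate 2, and −0.42 for TAZ replicate 1 minus replicate 2 (161 windows, description only, since density comes from the same 4 lists). On the long arm the 3 values were −0.88, −0.62 and −0.42, and on the short arm −0.75, −0.74 and −0.29. The length of the deposited lists moved with this slope in all 3 comparisons, and its part in the difference between YAP and TAZ was not tested. These sets of windows were added after the windows had been seen.

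**Figure D5:**
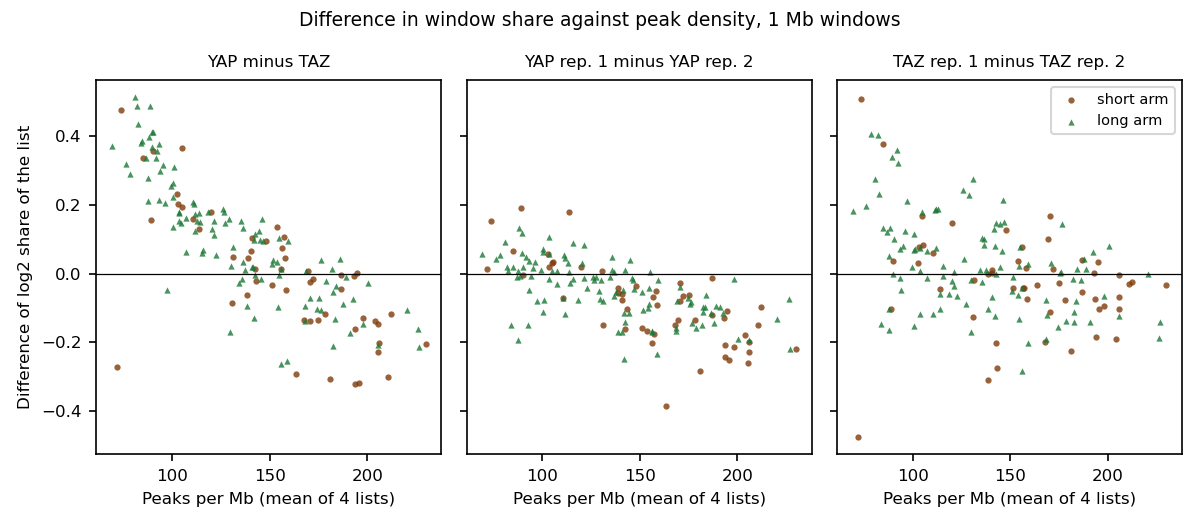
The difference of the log2 share of the list is plotted against the mean number of peaks per Mb of the 4 lists, 1 point per window of 1 Mb (circles, short arm; triangles, long arm), for YAP minus TAZ (left), YAP replicate 1 minus 2 (middle) and TAZ replicate 1 minus 2 (right). All 3 clouds fall from left to right, with rho of −0.84, −0.70 and −0.42.

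Besides the called windows, the highest differences were at 62 to 63 Mb (0.49; 107, 95, 74 and 52 peaks) on the long arm and at 51 to 52 Mb (0.48) and 55 to 56 Mb (0.36; 113, 102, 76 and 69 peaks) on the short arm. The lowest on the short arm were at 43 to 44 Mb (−0.32; 180, 192, 203 and 199 peaks), 34 to 35 Mb (−0.32; 182, 195, 203 and 203) and 41 to 42 Mb (−0.31; 167, 183, 179 and 195). In the first and the second of these both TAZ lists held more peaks than YAP even before scaling. On the long arm the lowest were at 167 to 168 Mb (−0.26; 152, 154, 149 and 169 peaks), 168 to 169 Mb (−0.25; 152, 161, 156 and 167) and 151 to 152 Mb (−0.21). The 3 highest of each arm were all among the 54 sparsest windows, and of the 6 lowest 5 were among the 54 densest, 167 to 168 Mb being the exception. The sparse window 40 to 41 Mb also had a low difference (−0.27). None of these passed the limma test other than the 3 named above.

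Most regions were found by more than 1 library. Joined into regions wherever they overlapped, the peaks of the 4 lists formed 27510 regions, of which 13649 (49.6%) held a peak of every list, 5686 (20.7%) of 3 lists, 4030 (14.6%) of 2 and 4145 (15.1%) of 1. Regions in all 4 lists had a median width of 1398 bp and made up 72.7% of the joined length, while regions of a single list had a median of 353 bp. The arms were alike in these shares, with 50.9% of regions in all 4 lists on the short arm and 48.9% on the long arm. Peaks of both YAP lists without a TAZ peak formed 1930 regions, and peaks of both TAZ lists without a YAP peak 253. These were 7.02% and 0.920% of the regions, against 6.87% and 1.44% over chromosomes 1 to 22 and X, so the YAP share was near that of the genome. Peaks of both replicate 1 lists without a replicate 2 peak formed 840 regions, and the reverse 313. For these counts and for the regions in all 4 lists no share over the genome is given. Nothing particular to chromosome 6 is read from them. The YAP lists are also the longer ones, and the part of list length in these counts was not tested.

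Overlap within an antibody did not exceed overlap between antibodies throughout. The Jaccard index of covered bases (shared length over joined length) was 0.652 for the YAP pair and 0.523 for the TAZ pair. Between antibodies it was 0.568 for the replicate 1 libraries, 0.534 for the replicate 2 libraries, 0.514 for YAP replicate 1 with TAZ replicate 2 and 0.558 for YAP replicate 2 with TAZ replicate 1. The YAP libraries were the most alike, and the TAZ libraries were less alike than 3 of the 4 mixed pairs. The mean within minus the mean between was 0.0436, and it turned to −0.0237 without YAP replicate 1 and to −0.0185 without YAP replicate 2, so it rested on the YAP pair. Of the members of TAZ replicate 1, 92.3% (Wilson 95% interval 91.9 to 92.6) overlapped a peak of YAP replicate 1, and of the latter 75.6% (75.1 to 76.2) overlapped a peak of the former. Such intervals cover counting error only.

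Strong peaks were far less shared. Their Jaccard index was between 0.0939 and 0.118 in the 6 pairs, and 22.5% of the strong members of YAP replicate 1 overlapped a strong peak of YAP replicate 2, while 93.9% overlapped some peak of it. The loss was thus mainly of rank and not of the peak itself. Strong peaks of the 4 libraries joined into 7682 regions, 2147 on the short arm and 5535 on the long arm.

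Regions strong in all 4 libraries were few. Strong peaks of both YAP libraries lay in 671 regions (157 short arm, 514 long arm) and of both TAZ libraries in 550 (131 and 419). Both sets met in 96 regions, 25 on the short arm and 71 on the long arm, called shared here. Of the 671 YAP regions 97.8% held a TAZ peak of any rank and 84.9% a peak of both TAZ lists. Of the 550 TAZ regions all held a YAP peak, and 97.5% a peak of both YAP lists. With 5000 or 50000 strong peaks per library in place of 20000 the shared regions numbered 12 and 578. No share over the genome is given for the shared regions.

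The shared region of the highest joint rank by −log10 q was the last of the short arm, chr6:58776096-58779455, at the edge of the peak-free gap. Its folds were 1.59, 2.26, 2.37 and 2.61, below the median of the arm in every library, while its −log10 q was 33.6, 92.2, 98.2 and 119.8. The first region after the gap, chr6:61880146-61916415, was shared as well, with folds of its strong peaks of 2.06, 2.69, 2.15 and 2.09. Both regions flanking the gap thus ranked high at low fold.

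Other leading shared regions had high folds in all 4 libraries. At chr6:168051869-168053825, beside the second longest peak-free stretch of the long arm, the folds were 5.98, 8.69, 5.69 and 7.63, the highest of any member in YAP replicate 2 and in TAZ replicate 2. At chr6:52624254-52624715 they were 6.90, 5.40, 7.71 and 5.07, the highest of the short arm in YAP replicate 1 and TAZ replicate 1. At chr6:67114329-67115044 they were 4.65, 4.70, 6.05 and 5.11, and at chr6:44012052-44014250 they were 5.09, 4.18, 4.58 and 4.46. Both TAZ libraries were above both YAP libraries at the third of these and at the other 3 the antibodies overlapped.

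The remaining 4 of the 10 leading shared regions were of the same kind, except for 1. At chr6:1737616-1738571 the folds were 5.71, 4.82, 5.84 and 4.47, at chr6:165338941-165340107 they were 4.91, 4.35, 5.96 and 4.62, and at chr6:34033267-34042889 they were 5.99, 5.21, 5.29 and 4.67. The exception, chr6:57437594-57438129, lay inside the stretch rich in strong peaks and had folds of 3.65, 4.08, 3.57 and 3.10.

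YAP-selective regions were strong in both YAP libraries and held no TAZ peak of any rank. There were 15 of them and 0 TAZ-selective regions. YAP-selective regions were 2 of the 157 regions strong in both YAP libraries on the short arm, and 13 of 514 on the long arm. They made up 2.24% of the 671 regions strong in both YAP libraries, against 1.64% (70 of 4264) over chromosomes 1 to 22 and X, where TAZ-selective regions were 0.308% (11 of 3577). These counts carry no test, since the chromosome was chosen with the YAP-selective count known, and with 50000 strong peaks per library they were 66 and 2. The 15 regions were narrow, between 363 and 724 bp (median 433), with folds between 3.45 and 5.02. The nearest peak of either TAZ list lay 995 to 10011 bp away (median 2006).

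The region chr6:1883276-1883708 led the YAP-selective regions with folds of 5.02 and 4.66 in the YAP libraries, and the nearest TAZ peaks were 4520 bp away in replicate 1 and 4466 bp in replicate 2. The second, chr6:155265813-155266259, had folds of 4.58 and 4.56, with TAZ peaks of fold 4.06 and 3.15 at 1026 and 1100 bp. The third, chr6:63486216-63486621, had folds of 4.78 and 4.13. In the second region a TAZ peak of like fold thus stood next to the YAP peak.

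The other YAP-selective region of the short arm was chr6:34920406-34920810, with YAP folds of 4.41 and 4.27 and TAZ peaks of fold 4.67 and 3.49 at 2044 and 2006 bp. The other 11 on the long arm began at 61978704, 64406180, 69667740, 70840063, 76531429, 79086205, 88038873, 116944201, 135693465, 145032234 and 155763078. Of the 13 on the long arm, 8 lay below 105 Mb, a bound set after the windows had been seen. The region at 61978704 is among these 8 but lies before 62 Mb. For scale, 62 to 105 Mb, which leaves that region out, held 738 of the 2226 strong long arm peaks of YAP replicate 1. In YAP replicate 2 it held 617 of 1931. With so few regions no uneven spread along the arm is read from this count.

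The highest fold of each library lay in 1 of 2 regions shared by the 4 libraries, the first and the second of the high-fold regions given above. On the other arm of each library the highest fold was matched less well. YAP replicate 1 reached 6.65 on the long arm, at chr6:62987191-62987587, where the other 3 had 3.08, 3.57 and 2.71. On the short arm YAP replicate 2 reached 6.33 at chr6:57117151-57117612, where YAP replicate 1 had 3.67 and the TAZ libraries 3.10 and 3.33. On the same arm TAZ replicate 2 reached 5.77 at chr6:13133530-13134634, with 2.72 and 2.86 in YAP and 4.70 in TAZ replicate 1. TAZ replicate 1 reached 6.82 on the long arm, at chr6:157936339-157936781, with 6.01 in YAP replicate 1, 4.41 in YAP replicate 2 and 3.96 in TAZ replicate 2. The first and the second of these 4 peaks were high in 1 library alone, and the last was high in both replicate 1 libraries and lies in a shared region.

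The widest peaks were mostly covered in the other lists on the short arm, and on the long arm less so for YAP. The widest of all was chr6:15199026-15239636 in YAP replicate 2 (40611 bp), of which 94.4, 87.4 and 89.3% were covered by peaks of YAP replicate 1, TAZ replicate 1 and TAZ replicate 2, broken into 3, 5 and 4 peaks. On the short arm both TAZ libraries had their widest peak at the same place, chr6:36530777-36557038 (26262 bp) and chr6:36530772-36561258 (30487 bp), and YAP replicate 2 covered both fully with 1 peak. YAP replicate 1 had its widest short arm peak at chr6:34691590-34715268 (23679 bp), of which the others covered 87.6, 81.0 and 85.3%. On the long arm the widest peaks of the YAP libraries, 28047 and 34410 bp, began at the edge of the peak-free gap. The 2 TAZ lists covered only 62.1 and 49.4% of the first and 61.9 and 50.8% of the second, while each YAP library covered at least 95.8% of the other's. The widest long arm peaks of TAZ were chr6:111147146-111169623 (22478 bp), of which the other lists covered 90.1 to 100%, and chr6:90527825-90550179 (22355 bp), of which they covered 84.8 to 89.9%.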

How the data were processed

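The 4 antibody libraries were analysed from the authors' deposited broad peak lists, made with cutadapt, Bowtie2, SAMtools and MACS2 on hg19, per the submitters' processing notes; their versions and parameters are not given in the sources used here. Each deposited list gives for each peak a fold (ratio of ChIP to input signal), a −log10 p, a −log10 q and a score; the score was not used. The smallest deposited −log10 q was 1.00. Peaks of chromosomes 1 to 22 and X were kept, and coordinates count from 1. Depth is unknown, and the 2 inputs were used only as the authors' peak calling used them.

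Peaks were assigned by midpoint to arms and to windows of 1 Mb. Window counts as shares of each list (log2, 0.5 added to each count) were compared with limma 3.58.1 (R 4.3.3) over the 2883 windows with a mean of at least 5 peaks, 162 of them on chromosome 6 outside the excluded interval. On simulated windows with known changes, 99% of 200 windows changed by 1 on the log2 scale were recovered. The simulation held counting error only, without further spread between replicates. Its change was also larger than any in the 162 windows, where the largest difference was 0.51. Recovery of differences of the size reported here was thus not tested. Single values were compared by exact permutation over libraries with Python 3.11.15, numpy 2.4.6, pandas 2.3.3 and scipy 1.17.1. Windows and regions were named by a rule: the extreme windows of each arm, called windows, all selective regions, the 10 leading shared regions and the extreme peaks. Windows under 0.5 Mb were left out of naming after the data had been seen. The members and lists were chosen with earlier results of these data known. Alternatives were filters on q-value (0.01 or less) and on fold (4 or more), lists of equal length, other numbers or ranks of strong peaks, other window scalings, each library left out, and a replicate block. No gene annotation or sequence of hg19 was used.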

Additional observations from a re-analysis of the deposited data

How the results depend on the processing

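Peak number, covered share and the arm difference kept their direction under all alternatives run (8, 8 and 7). The YAP minus TAZ difference in share of list turned to −0.470 percentage points with a q-value of at most 0.01 and to −0.00866 with a fold of at least 4. With that fold, the difference in median width became 36.75 bp and that in the arm ratio 0.00159. The cause was not tested. Windows called were 16 by covered bases (9 for YAP, 7 for TAZ) and 3 with a q-value of at most 0.01 (0 for YAP, 3 for TAZ), against 3 in the report. Over all windows of the genome these counts were 172 of 2883, 131 of 2882 and 138 of 2883. Shared, YAP-selective and TAZ-selective regions numbered 12, 2 and 0 with 5000 strong peaks, 578, 66 and 2 with 50000, and 29, 6 and 0 ranked by fold.

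Leaving out each library in turn gave 2947.5 to 4288.5 for the difference in peak number and −0.0650 (without YAP replicate 2) to 0.276 for share of list. Covered share gave 2.30 to 4.12, and median width −55.5 to −3 bp. The arm ratio gave −0.102 to −0.0616, and the arm difference 20.8 to 24.3. The overlap contrast ran from −0.0237 and −0.0185 (without either YAP library) to 0.0890 and 0.128 (without either TAZ library). Regions numbered 179 to 231 shared, 49 to 128 YAP-selective and 1 to 21 TAZ-selective, 1 requirement being dropped each time. Windows called were 0 without YAP replicate 1 or TAZ replicate 2 and 12 without YAP replicate 2 (1 for YAP, 11 for TAZ) or TAZ replicate 1 (10 and 2); the lone library of an antibody was assumed to vary like the others.

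The replicate numbers are shared by both antibodies, but with 2 pairs they were not taken to pair the libraries: deviations of same-numbered libraries correlated at 0.416 over 2883 windows and 0.367 over the 162 of chromosome 6. With the replicate block limma called 0 windows, and 0 in the genome; the paired differences equal the unpaired ones (3618 peaks, 0.105 points of share, 3.21 points of covered share, −29.25 bp, −0.0816 in the arm ratio), and the overlap contrast was 0.0511. With 2 against 2 libraries no exact test can fall below 0.333.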
